A study of Mus musculus with 4 samples.

Results

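Polycomb group genes encode the subunits of the chromatin complexes that keep developmental genes silent, and 44 of them were followed here through the mRNA of mouse pachytene spermatocytes treated with BMH21. The 44 were chosen by name as core, accessory and deubiquitinase-complex members of the Polycomb repressive complexes PRC1 and PRC2. No rule on their values was used, but earlier results of these data were known when they were chosen. Of these, 42 had a row among the 15733 protein-coding genes of the count table, and 40 had enough counts to be tested. L3mbtl3 and Scml4 had no row, and Cbx8 and Pcgf2 had a row but were too weak. The cells came from mouse testis, dissociated and kept for 12 h outside the body with BMH21 at 2.5 µM or DMSO as the solvent control (called mock), and pachytene spermatocytes were then sorted on Hoechst, a DNA dye. BMH21 is a DNA intercalator that blocks transcription by RNA polymerase I. There were 2 libraries per group, which the design text calls biological replicates. Strain, genotype and age of the mice are not given in the sources used here, and both groups share the dissociation, the culture and the sort.

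PRC2 methylates H3K27 through EZH1 or EZH2, held by SUZ12 and EED. PRC1 ubiquitinates histone H2A through RING1 or RNF2, each paired with a PCGF protein. In canonical PRC1 a CBX protein reads the PRC2 mark and a PHC protein lets complexes cluster, whereas variant PRC1 carries RYBP or YAF2 instead. The PR-DUB complex, built from BAP1 and an ASXL protein, removes ubiquitin from H2A. In the male germ line SCML2, a Polycomb protein encoded on the X chromosome, is known for its part in setting the H2A ubiquitination of autosomes and sex chromosomes, and pachytene is the stage at which the X and Y are transcriptionally silenced.

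The libraries held 30964370 to 41548269 counts, of which 97449 to 129869 fell on Polycomb members. Pachytene marker genes were all detected (10 of 10), and their levels in CPM (counts scaled to a common library size) summed to 2229 to 2253 in mock and 2367 to 2384 in BMH21. Of these 10 genes, 5 were called higher and 2 lower. Round spermatid markers (9 of 9 in the table) summed to 392.4 to 401 CPM in mock and 406 to 414 in BMH21, with none called. Leptotene and zygotene markers (6 of 6) summed to 211 to 212 CPM and 198 to 203 CPM, and spermatogonial markers (7 of 8) to 17.9 to 19.4 CPM and 14.1 to 16.9 CPM, each with 2 genes called lower. Most of the leptotene and zygotene sum came from Spo11 (116 CPM in mock and 104 in BMH21) and Tex101 (88.5 and 90.0). Prdm9 and Dmc1 were weak (0.726 and 0.383 CPM in mock, 0.524 and 0.975 in BMH21), and neither was called. Sertoli markers (2 of 7), Leydig markers (3 of 6), peritubular markers (4 of 4) and macrophage markers (4 of 6) summed to under 10 CPM in every library, and 1 of them, a Leydig marker, was called lower; the markers with no row were not analysed here. The part of these differences in the results below was not tested. In such bulk libraries, fewer cells of a type and less RNA per cell cannot be told apart.

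Of the 40 tested members, 8 rose and 8 fell, called at an adjusted p under 0.05 in edgeR with Benjamini-Hochberg adjustment over all 13793 tested genes. Scml2, Bcor and Bcorl1 rose on the X chromosome, and Phc3, Pcgf3, Phc2, Bap1 and Pcgf6 rose on autosomes. Rybp, Ring1, Pcgf1, Rnf2, L3mbtl2, Sfmbt2, Suz12 and Asxl1 fell. The remaining 24 did not pass the test. Over all genes 29.1% were called, 16.5% higher and 12.5% lower. The 37 autosomal members tested had 13 calls (35.1%), against 27.9% of autosomal genes. At a mean level of 10 CPM or more, where small changes can be detected, 13 of 29 autosomal members were called (44.8%), against 38.4% of autosomal genes. Of those 29, 8 fell (27.6%) against 17.4%, and 5 rose (17.2%) against 21.1%. The members' share of calls thus lay near the background. The median log2 fold change was -0.07 over the autosomal members tested and -0.01 over autosomal genes.

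Most of these autosomal changes were small. The libraries of the groups did not overlap in 23 of 37 autosomal members (62.2%), against 60.2% of autosomal genes. Changes of at least 1.5-fold were called in 4 autosomal members, Phc3, Pcgf3, Phc2 and Rybp, and in 7.22% of autosomal genes. The other 9 called autosomal members moved by 0.11 to 0.28 in size on the log2 scale. In the authors' deposited table, 14 of the 42 listed members had an adjusted p under 0.05, 8 higher and 6 lower, and its column of marks names 3 of them, all X-linked, as up.

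**Figure D1:**
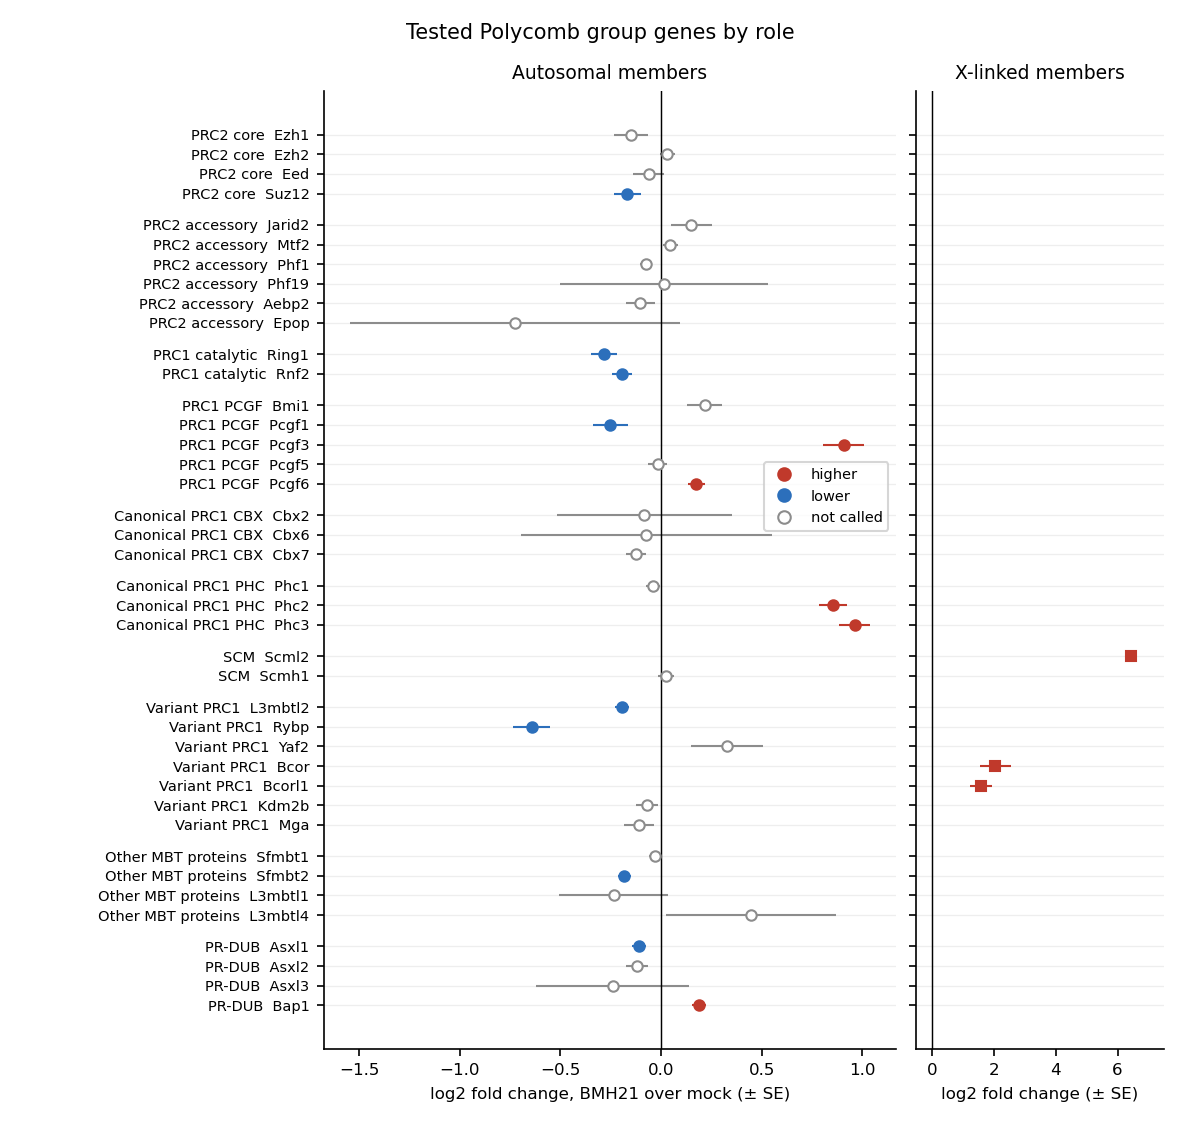
Log2 fold change of BMH21 over mock with its standard error for the 40 tested members, ordered by role, autosomal on the left and X-linked on the right with a wider axis. Red marks are called higher, blue called lower and open grey not called; Scml2 lies at 6.45, and Phc3, Pcgf3 and Phc2 stand out at 0.86 to 0.96 among autosomal members.

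The largest difference was that of Scml2 (ENSMUSG00000000037.18, chromosome X, 161117193 to 161258213 on GRCm38). It was at 1.74 and 2.24 CPM in the mock libraries and at 170 and 172 CPM in the BMH21 libraries. The groups lay far apart, with an edgeR adjusted p of 1.45e-61 (log2 fold change 6.45 ± 0.08 SE). Over the 11 alternatives run the value was 6.26 to 6.62. Of all X-linked genes tested, 73.5% were called, 73.2% higher and 0.292% lower, with a median log2 fold change of 4.19, and all 3 X-linked members were called higher. Some X-linked genes, Bcor among them, had enough counts to be tested only through their BMH21 libraries, which favours a rise. The X-linked share, median and ranks include such genes. Scml2 ranked 49 of the 343 X-linked genes by fold change. By level in CPM, a scale not corrected for length, it ranked 42 in mock and 12 in BMH21. It took 0.441% and 0.558% of all X-linked counts in the mock libraries and 1.93% and 1.91% in the BMH21 libraries.

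Scml2 has a close relative on chromosome 4, Scmh1, whose product also carries the MBT repeats and the SAM domain of the SCM proteins. Scmh1 was at 159 and 152 CPM in mock against 158 and 159 in BMH21, with overlapping groups (log2 fold change 0.02 ± 0.04 SE, edgeR adjusted p = 0.711). Divided by exon length, the level of Scmh1 was 20.1 CPM per kb in mock and 20.5 in BMH21, and that of Scml2 was 0.327 and 28.2. Scml2 therefore made up 1.37% and 1.84% of the summed CPM per kb of these relatives in the mock libraries, and 57.9% and 58.0% in the BMH21 libraries. Their sum went from 20.9 and 20.0 to 48.4 and 48.8 CPM per kb. These shares are ratios within a library and do not depend on how libraries are scaled. They do depend on the exon lengths, taken over all annotated exons of a gene, which need not match the transcripts of these cells. The same holds for every level per length and paralog share below. No test was made on them.

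**Figure D2:**
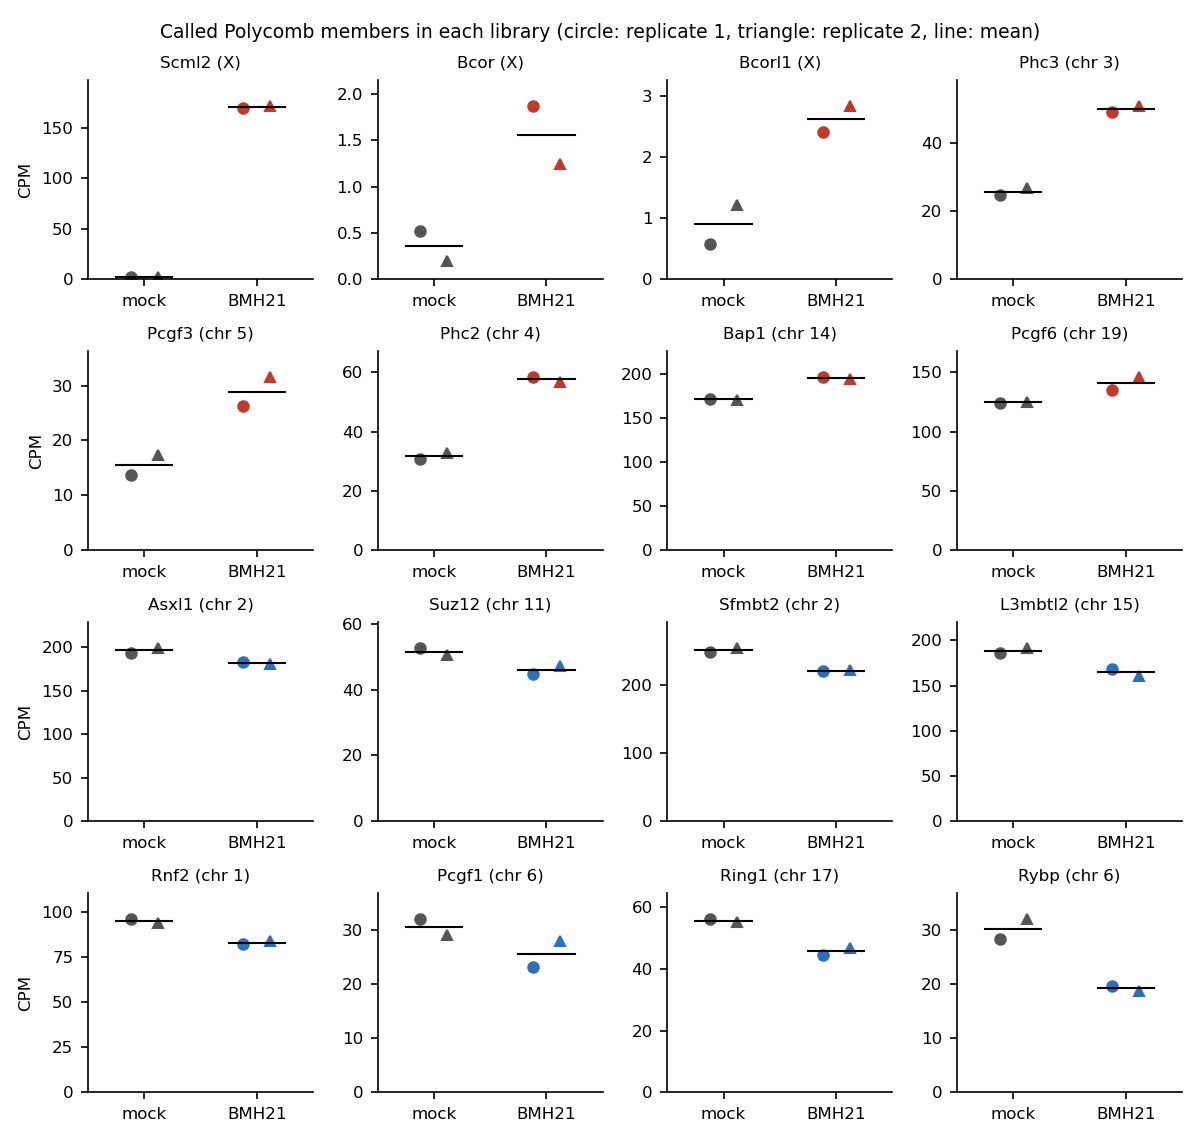
CPM in each library for the 16 called members, ordered by log2 fold change, each panel with its own axis from 0; circles are replicate 1, triangles replicate 2 and lines group means (n = 2). The groups do not overlap in any panel, with the widest gap in Scml2 (1.99 to 171 CPM).

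The X-linked corepressor genes Bcor and Bcorl1, whose products belong to the variant PRC1 built on PCGF1, also rose, but stayed weak. Bcor (ENSMUSG00000040363.16, chromosome X, 12036740 to 12160355) had 22 and 6 counts in mock and 62 and 46 in BMH21, or 0.524 and 0.192 against 1.87 and 1.24 CPM. All BMH21 libraries lay above all mock libraries, with an edgeR adjusted p of 8.90e-04 (log2 fold change 2.05 ± 0.50 SE). Bcor passed the filter on low counts only through its BMH21 libraries, and without BMH21 replicate 1 its adjusted p was 0.0509. Bcorl1 (ENSMUSG00000036959.16, chromosome X, 48341358 to 48408049) was at 0.572 and 1.22 CPM in mock against 2.42 and 2.83 in BMH21. It rose by 1.59 ± 0.35 (SE) on the log2 scale (edgeR adjusted p = 2.48e-04). Both lay below the X-linked median of 4.19, at rank 235 for Bcor and 243 for Bcorl1 of 343. That median and those ranks include further genes that passed the filter only through their BMH21 libraries.

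The promoter windows of the 3 X-linked members and of the 2 autosomal members with the largest rises and a single annotated start window are shown because the variant PRC1 subunit KDM2B is known to bind unmethylated CG pairs. They are RefSeq windows on GRCm38.p6, 250 bases before to 50 after an annotated start, 5′ to 3′ on the strand of the gene, with every CG in capitals (Bcor has a further start window 9 bases away).
Scml2 (chrX:161162500-161162799, plus strand): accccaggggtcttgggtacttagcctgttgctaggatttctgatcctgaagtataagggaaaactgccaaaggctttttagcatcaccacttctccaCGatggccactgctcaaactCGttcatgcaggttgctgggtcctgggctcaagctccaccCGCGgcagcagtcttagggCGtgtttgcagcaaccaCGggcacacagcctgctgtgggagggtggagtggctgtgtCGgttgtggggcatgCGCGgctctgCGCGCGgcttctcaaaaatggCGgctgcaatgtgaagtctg
Bcorl1 (chrX:48341108-48341407, plus strand): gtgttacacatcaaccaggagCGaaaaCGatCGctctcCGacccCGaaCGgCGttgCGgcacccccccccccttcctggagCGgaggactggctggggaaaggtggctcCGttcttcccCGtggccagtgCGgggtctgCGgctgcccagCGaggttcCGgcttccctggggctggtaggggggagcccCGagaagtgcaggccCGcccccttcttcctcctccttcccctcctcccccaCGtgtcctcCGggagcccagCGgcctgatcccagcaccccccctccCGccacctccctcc
Bcor (chrX:12160297-12160596, minus strand): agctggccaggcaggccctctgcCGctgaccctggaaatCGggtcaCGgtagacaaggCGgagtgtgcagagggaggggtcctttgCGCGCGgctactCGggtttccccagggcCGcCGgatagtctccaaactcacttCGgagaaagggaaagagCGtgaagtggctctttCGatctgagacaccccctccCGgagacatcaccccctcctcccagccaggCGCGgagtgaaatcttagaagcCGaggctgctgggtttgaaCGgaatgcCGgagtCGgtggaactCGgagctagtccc
Phc3 (chr3:30969366-30969665, minus strand): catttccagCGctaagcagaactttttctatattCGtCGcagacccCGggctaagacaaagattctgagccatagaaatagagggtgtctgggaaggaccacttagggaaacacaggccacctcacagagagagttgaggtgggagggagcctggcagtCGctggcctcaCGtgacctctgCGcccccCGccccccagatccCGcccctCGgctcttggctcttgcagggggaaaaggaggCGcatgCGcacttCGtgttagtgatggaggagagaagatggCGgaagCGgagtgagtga
Pcgf3 (chr5:108461009-108461308, plus strand): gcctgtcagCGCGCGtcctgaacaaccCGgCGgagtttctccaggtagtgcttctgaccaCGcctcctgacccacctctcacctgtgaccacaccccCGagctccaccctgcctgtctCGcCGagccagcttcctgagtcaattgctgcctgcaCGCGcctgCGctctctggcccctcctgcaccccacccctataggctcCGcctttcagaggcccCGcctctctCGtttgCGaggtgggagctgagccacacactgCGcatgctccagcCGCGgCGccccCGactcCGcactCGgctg

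The Scml2 window held 13 CG pairs, that of Phc3 15, those of Bcorl1 and Bcor 21 each and that of Pcgf3 23. Over all 32851 windows of this length in the table the median was 7 (quartiles 3 and 20), and 94.6% held at least 1 CG. The Scml2 count was reached or passed by 37.9% of windows, and that of Pcgf3 by 21.5%. The E-box CACGTG, a word that reads the same on both strands, contains a CG and is bound by MAX partners such as MGA, was found in the windows of Bcorl1 and Phc3. It was not found in the other 3. Of all windows 7.15% hold it, and of the 52 windows of the members 11 do (21.2%). RefSeq windows were found for 37 of the 44 members, with a median of 23 CG pairs over the 52 windows. The counts of Scml2, Phc3, Bcorl1 and Bcor lie below that median, and that of Pcgf3 equals it. The Scml2 window lies downstream of the gene start in GENCODE, and the start used in spermatocytes is not known from these counts.

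Polyhomeotic genes, which encode the SAM-domain proteins of canonical PRC1, split by paralog. Phc3 (ENSMUSG00000037652.16, chromosome 3, 30899371 to 30969415) was at 24.8 and 26.7 CPM in mock against 49.2 and 51.0 in BMH21. Its log2 fold change was 0.96 ± 0.08 (SE), with an edgeR adjusted p of 2.26e-17, and 3.34% of autosomal genes had a larger one. Phc2 (ENSMUSG00000028796.18, chromosome 4, 128654702 to 128752881) was at 30.9 and 32.9 CPM in mock against 58.4 and 56.9 in BMH21. It rose by 0.86 ± 0.07 (SE) on the log2 scale (edgeR adjusted p = 9.44e-17). For both genes every BMH21 library was well above every mock library, and the 11 alternatives run gave values between 0.81 and 1.01. Phc1, the paralog with the highest level, was at 235 and 234 CPM in mock against 238 and 219 in BMH21, with overlapping groups (log2 fold change -0.04 ± 0.03 SE, edgeR adjusted p = 0.407). Phc1 was called lower under upper-quartile scaling (-0.09) and without BMH21 replicate 1 (-0.10). Per length, Phc1 took 88.5% and 87.7% of the summed level of the paralogs in mock and 80.2% and 79.0% in BMH21, while Phc2 went from 8.71% and 9.25% to 14.8% and 15.4%.

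None of the CBX genes of canonical PRC1, which encode its readers of methylated H3K27, was called. Cbx7 held 96.8% to 98.0% of their summed CPM per kb in every library. It was at 84.5 and 88.6 CPM in mock against 78.1 and 80.4 in BMH21, just short of the threshold (log2 fold change -0.13 ± 0.05 SE, edgeR adjusted p = 0.0536). It was called lower in 4 of 11 alternatives, RLE and upper-quartile scaling, the minimum count of 50 and the replicate block, with adjusted p from 0.00534 to 0.364 over all 11. Cbx2, Cbx6 and the untested Cbx8 stayed under 2 CPM, with ranges of 0.858 to 1.34, 0.162 to 0.966 and 0.0477 to 0.181 CPM over the 4 libraries. Their groups overlapped.

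**Figure D3:**
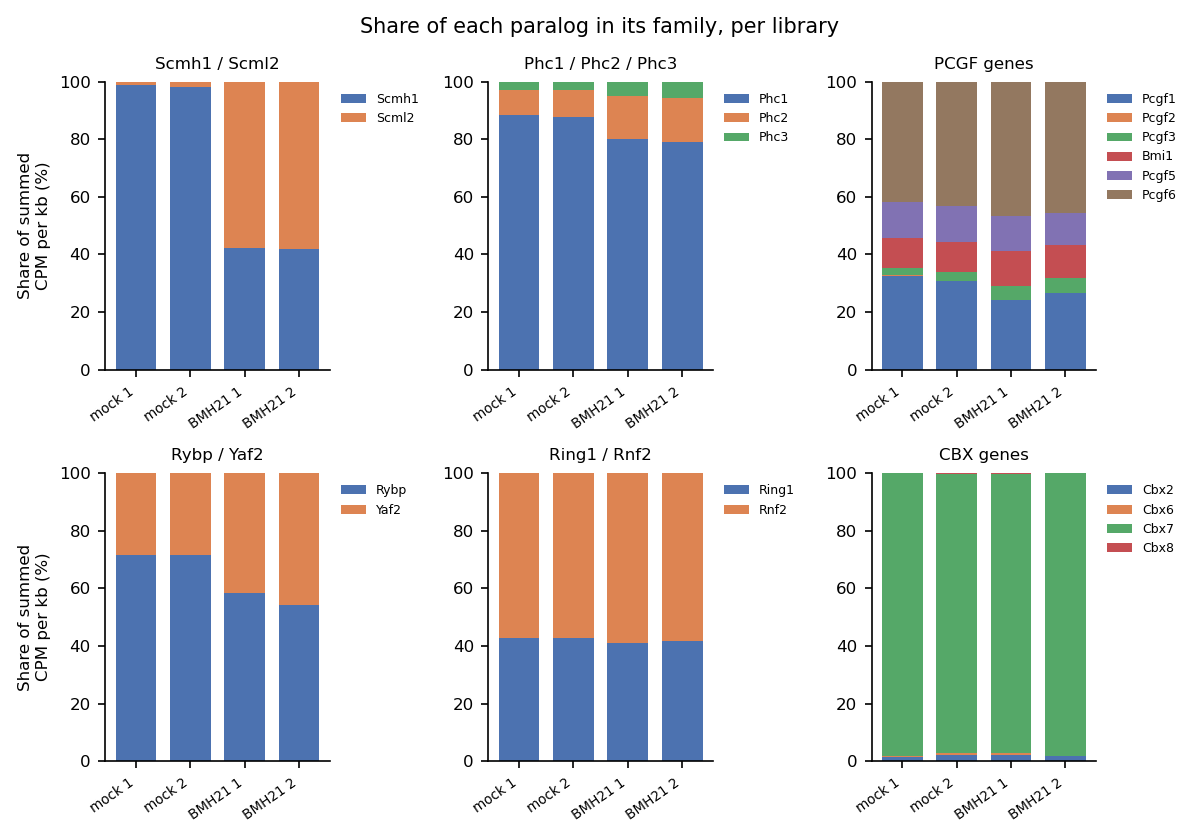
Share of each paralog in the summed CPM per kb of its family (y axis, %) in each of the 4 libraries. The Scml2 share goes from under 2% in mock to 57.9% and 58.0% in BMH21, Phc2 and Phc3 gain on Phc1, Yaf2 gains on Rybp, and the RING and CBX families keep their order.

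Both genes of the ubiquitin ligase core of PRC1 fell by a small amount. Ring1 (ENSMUSG00000024325.9, chromosome 17, 34020792 to 34024680) was at 56.1 and 55.2 CPM in mock against 44.7 and 46.9 in BMH21. Its log2 fold change was -0.28 ± 0.06 (SE), with an edgeR adjusted p of 3.31e-04. Rnf2 (ENSMUSG00000026484.14, chromosome 1, 151458004 to 151500955) was at 95.7 and 93.7 CPM in mock against 81.9 and 83.5 in BMH21, a log2 fold change of -0.20 ± 0.05 (SE; edgeR adjusted p = 0.00105). The groups did not overlap for either gene, and both kept their calls under every alternative run. Their summed level went from 40.5 and 39.7 to 33.6 and 34.7 CPM per kb, and the Ring1 share from 42.7% and 42.8% to 41.0% and 41.7%.

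The PCGF genes, whose products decide which PRC1 complex forms, went in different directions. Pcgf3 (ENSMUSG00000033623.14, chromosome 5, 108461232 to 108506976) was at 13.7 and 17.3 CPM in mock against 26.2 and 31.6 in BMH21. It rose by 0.91 ± 0.10 (SE) on the log2 scale, with an edgeR adjusted p of 2.67e-11. Pcgf6, the subunit of the germ-line gene-silencing variant PRC1 that also holds MGA and L3MBTL2, was at 124 and 125 CPM in mock against 135 and 146 in BMH21. This was a rise of 0.18 ± 0.04 (SE; edgeR adjusted p = 5.14e-04), and without BMH21 replicate 2 it lost its call (0.12, adjusted p = 0.0564). Pcgf1 was at 31.9 and 29.0 CPM in mock against 23.2 and 28.0 in BMH21, where the libraries nearly met. It fell by 0.25 ± 0.09 (SE; edgeR adjusted p = 0.0225), but was not called in DESeq2 (adjusted p = 0.105), with the replicate number as a block (0.0551), or without mock replicate 1 (-0.18) or BMH21 replicate 1 (-0.13). Without BMH21 replicate 2 it was at -0.40.

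The remaining PCGF genes did not pass. Bmi1, the canonical partner first known as an oncogene, was at 24.9 and 23.7 CPM in mock against 27.5 and 29.0 in BMH21 (log2 fold change 0.22 ± 0.09 SE, edgeR adjusted p = 0.0518). The groups did not overlap, and the gene was called in 2 of 11 alternatives, scaling on autosomal genes alone (adjusted p = 0.0473) and a minimum count of 50 (0.0483), with adjusted p up to 0.284 in the others. Pcgf5, at 92.7 and 90.4 against 91.2 and 89.9 CPM, had overlapping groups (-0.02 ± 0.05 SE, edgeR adjusted p = 0.858). Pcgf2, also named Mel18 and the other canonical partner, had 4 and 15 counts in mock and 4 and 2 in BMH21, too few to test. Per length Pcgf6 led in every library, with 41.8% and 43.2% of the summed PCGF level in mock and 46.5% and 45.6% in BMH21. The Pcgf1 share went from 32.7% and 30.6% to 24.3% and 26.6%, and the Pcgf3 share from 2.43% and 3.15% to 4.75% and 5.19%.

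Among the subunits of variant PRC1, Rybp had the largest fall of any member that passed the test. Rybp (ENSMUSG00000072872.4, chromosome 6, 100228565 to 100287485) encodes the zinc-finger protein that stimulates the ligase and binds ubiquitinated H2A. It was at 28.2 and 31.9 CPM in mock against 19.7 and 18.8 in BMH21, with an edgeR adjusted p of 3.25e-08 (log2 fold change -0.64 ± 0.09 SE). Every BMH21 library lay below every mock library, and 6.36% of autosomal genes had a smaller log2 fold change. Yaf2, the gene of the alternative subunit, was at 4.46 and 4.99 CPM in mock against 5.55 and 6.26 in BMH21 (0.33 ± 0.18 SE, edgeR adjusted p = 0.182). Per length the Rybp share of the pair was 71.4% and 71.7% in mock and 58.3% and 54.2% in BMH21.

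L3mbtl2, which encodes an MBT protein of the PCGF6 complex, was at 186 and 191 CPM in mock against 169 and 161 in BMH21. It fell by 0.19 ± 0.04 (SE) on the log2 scale (edgeR adjusted p = 1.60e-05). On the opposite strand the gene Chadl overlaps 17.2% of its exon bases and was also called lower (-0.22, edgeR adjusted p = 0.00645). The library kit was stranded, but no source used here states the strand setting used in counting, and reads of these neighbours may not have been separated. Mga, the gene of the E-box-binding scaffold of the same complex, was at 39.5 and 38.8 CPM in mock against 34.6 and 37.8 in BMH21 (-0.11 ± 0.07 SE, edgeR adjusted p = 0.296). Kdm2b, which encodes the CG-binding demethylase of the PCGF1 complex, ranged from 70.7 to 80.7 CPM with overlapping groups (-0.07 ± 0.05 SE, adjusted p = 0.391).

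**Figure D4:**
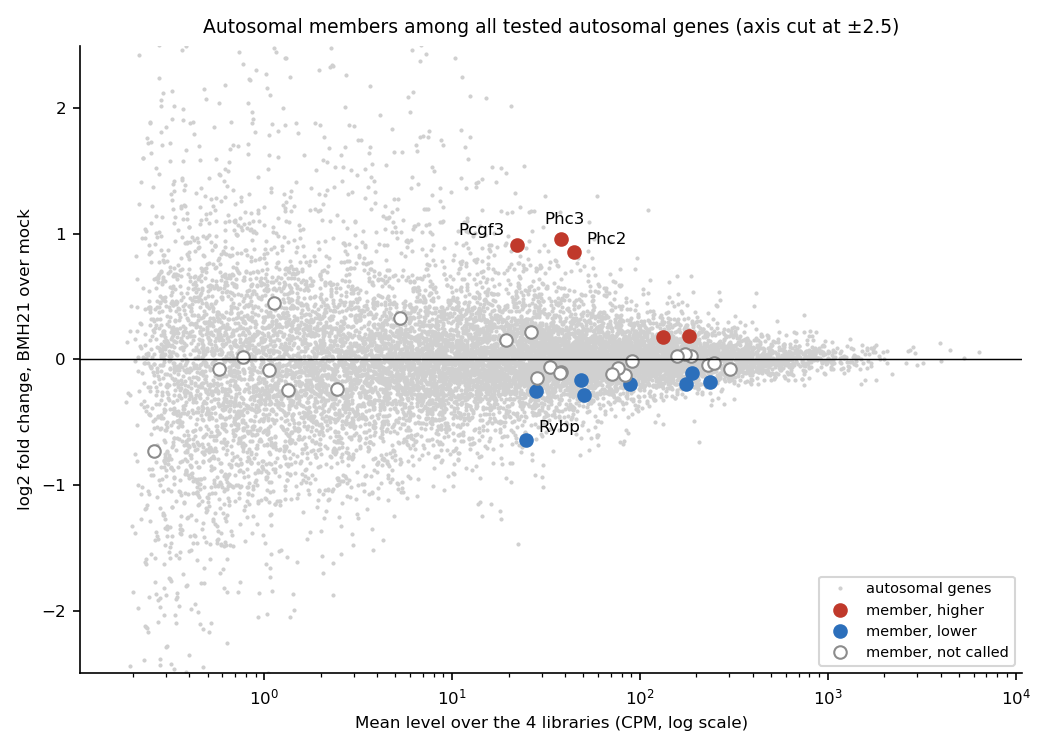
Log2 fold change of BMH21 over mock (y axis) against the mean level over the 4 libraries in CPM (log x axis) for the autosomal members, over all tested autosomal genes in light grey; 85 genes beyond 2.5 in size lie outside the axis. Phc3, Pcgf3 and Phc2 lie at 0.96 to 0.86 and Rybp at -0.64; the other called members lie between -0.28 and 0.19.

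The PRC2 core was close to level between the groups. Ezh2, the methyltransferase gene with the higher level, was at 181 and 189 CPM in mock against 183 and 194 in BMH21, with overlapping groups (log2 fold change 0.03 ± 0.04 SE, edgeR adjusted p = 0.591). Ezh1, its paralog, was at 30.7 and 29.0 CPM in mock against 27.6 and 26.3 in BMH21 (-0.15 ± 0.08 SE, adjusted p = 0.189). Ezh2 took 86.8% to 89.1% of their summed CPM per kb in every library. Eed, which encodes the subunit that reads methylated H3K27, was at 32.5 and 35.7 CPM in mock against 31.9 and 33.2 in BMH21 (-0.06 ± 0.08 SE, edgeR adjusted p = 0.626). Suz12, the scaffold gene, was at 52.6 and 50.6 CPM in mock against 44.7 and 47.2 in BMH21. It fell by 0.17 ± 0.07 (SE; edgeR adjusted p = 0.0463), a call at the threshold that 7 of 11 alternatives ended, among them DESeq2 (adjusted p = 0.118) and leaving out mock replicate 1 (-0.14), mock replicate 2 (-0.19) or BMH21 replicate 1 (-0.13).

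None of the 6 accessory PRC2 genes passed the test. Phf1, a Polycomb-like gene whose product binds methylated H3K36, had the highest level per length of all tested members, 88.6 CPM per kb in mock and 84.2 in BMH21. It was at 311 and 306 CPM in mock against 304 and 283 in BMH21 (log2 fold change -0.07 ± 0.03 SE, edgeR adjusted p = 0.0640). It was called lower in 4 of 11 alternatives, without BMH21 replicate 1 (-0.13), under upper-quartile scaling (-0.12), under RLE scaling and at a minimum count of 50. The gene Cuta, at 133 and 132 CPM in the groups, overlaps 39.3% of its exon bases on the opposite strand, so the level of Phf1 is uncertain for the same reason. Mtf2, its paralog, was at 171 to 172 CPM in mock and 174 to 180 CPM in BMH21. Jarid2 and Aebp2, which define one form of PRC2, had log2 fold changes of 0.15 ± 0.10 (SE) and -0.10 ± 0.07 (SE). Phf19 and Epop, known from embryonic stem cells, stayed under 1 CPM.

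**Figure D5:**
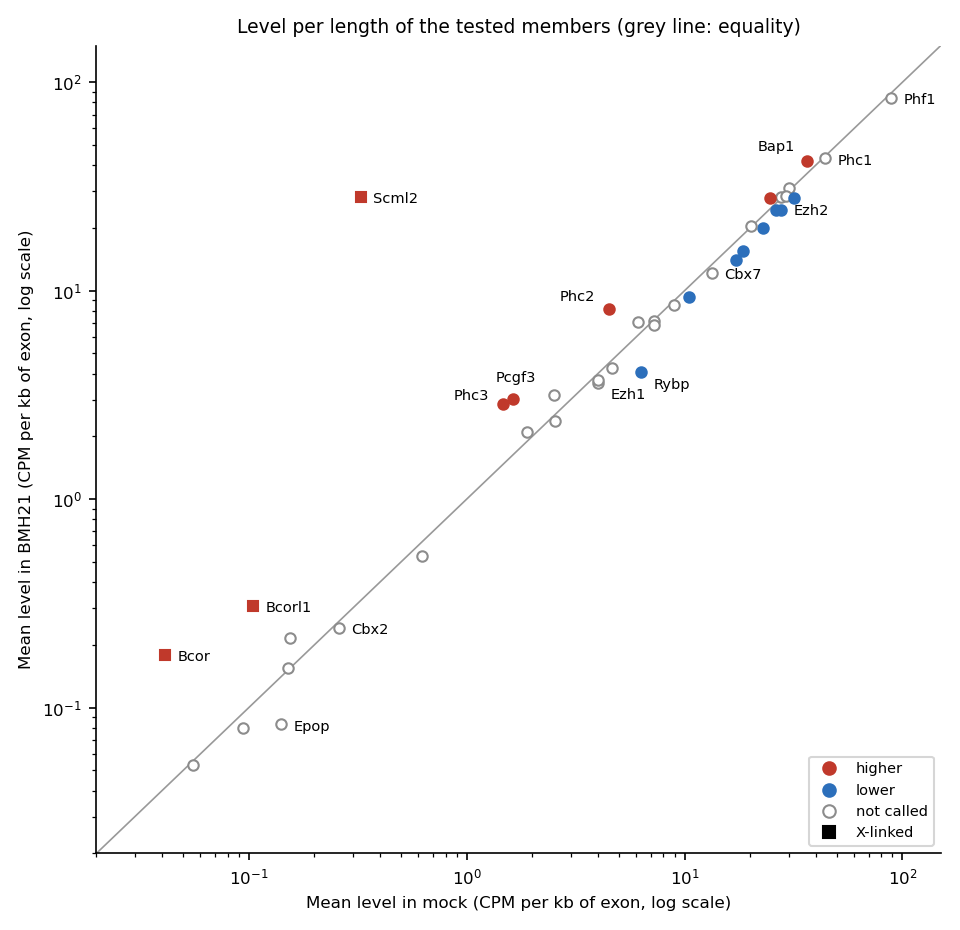
Mean level per length in BMH21 (y axis) against mock (x axis), both in CPM per kb of exon on log scales, for the 40 tested members (n = 2 per group); squares are X-linked and colours mark the calls. Most members lie near the line of equality; Scml2 moves from 0.327 to 28.2 CPM per kb, into the range of Ezh2 (27.7 and 28.3).

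Of the PR-DUB genes, Bap1 rose and Asxl1 fell, each by a small amount. Bap1, the catalytic subunit that cleaves ubiquitin from H2A, was at 172 and 171 CPM in mock against 197 and 194 in BMH21. Its log2 fold change was 0.19 ± 0.04 (SE), with an edgeR adjusted p of 1.35e-05, and every alternative run kept the call. Asxl1, the partner gene with the highest level, was at 193 and 198 CPM in mock against 183 and 180 in BMH21. It fell by 0.11 ± 0.04 (SE; edgeR adjusted p = 0.0121) and was not called without mock replicate 2 (-0.09). Asxl2 was at 74.4 and 73.8 CPM in mock against 69.5 and 66.9 in BMH21 (-0.12 ± 0.05 SE, edgeR adjusted p = 0.0906), and Asxl3 stayed at 1.08 to 1.54 CPM. Asxl1 took 84.5% to 85.0% of the summed ASXL level per length in every library.

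Among the other MBT-repeat genes, Sfmbt2 was at 249 and 255 CPM in mock against 221 and 223 in BMH21. It fell by 0.18 ± 0.03 (SE) on the log2 scale (edgeR adjusted p = 3.80e-06) with a clear gap between the groups. Its paralog Sfmbt1, known for a part in germ-cell silencing, was at 249 and 254 CPM in mock against 254 and 239 in BMH21 (-0.03 ± 0.03 SE, edgeR adjusted p = 0.588). L3mbtl1 and L3mbtl4 ranged from 1.86 to 2.91 CPM and from 0.576 to 1.54 CPM with overlapping groups. Summed over all listed members, the level was 3095 and 3118 CPM in mock and 3240 and 3231 CPM in BMH21. Without the X-linked members it was 3092 and 3115 CPM in mock and 3065 and 3055 CPM in BMH21. Scml2 alone was 0.0562% and 0.0718% of the members' CPM in mock and 5.26% and 5.33% in BMH21.

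Partner subunits outside the 44 were counted in a further list of 22 genes. This list and those below were drawn up with earlier results of these data known, so their shares of calls are descriptive only. The background shares set beside them are not matched for level, and 38.4% of autosomal genes with a mean of 10 CPM or more were called. Of 20 tested, 10 rose and 1 fell (55% called; 29.1% over all genes), with a median log2 fold change of 0.11. With upper-quartile scaling the counts were 7 higher and 3 lower. The 1 fall, of the casein kinase gene Csnk2a1, was lost in 4 of 11 alternatives, DESeq2, the replicate block and those without mock replicate 1 or BMH21 replicate 2. On autosomes 8 of 18 rose and 1 fell (50% against 27.9%). Hdac2, a histone deacetylase gene, went from 18.5 ± 0.321 to 32.2 ± 3.62 CPM (SD, n = 2 each) and rose by 0.80 ± 0.09 (SE; edgeR adjusted p = 5.49e-11) on the log2 scale. Usp7, which encodes a deubiquitinase found in PRC1, rose by 0.20 ± 0.03 (SE; edgeR adjusted p = 2.15e-06). The X-linked histone chaperone gene Rbbp7, a PRC2 subunit, had 18 and 8 counts in mock and 462 and 498 in BMH21 (edgeR adjusted p = 1.10e-29). Its autosomal paralog Rbbp4 was at 240 and 259 CPM (0.11 ± 0.03 SE, edgeR adjusted p = 0.00452), a call lost under upper-quartile scaling and without mock replicate 2 or BMH21 replicate 2 (0.06 to 0.13 over all alternatives). Skp1 was not called under upper-quartile scaling or without mock replicate 1, and Dcaf7 under upper-quartile scaling or without mock replicate 2. Ezhip, the X-linked gene of a known EZH2 inhibitor protein of germ cells, had 2 and 0 counts in mock and 106 and 130 in BMH21 (adjusted p = 2.87e-15 in edgeR). Rbbp7 and Ezhip passed the filter only through the BMH21 libraries.

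Among 14 further genes of PR-DUB and of H2A ubiquitin turnover, all tested, 6 rose and 1 fell (50% called, against 29.1% over all genes), with a median log2 fold change of 0.09. On autosomes 4 of 12 rose and 1 fell (41.7% against 27.9%). One of these, the deubiquitinase gene Usp22, had 9 and 12 counts in mock and 42 and 55 in BMH21 and passed the filter only through the BMH21 libraries. The X-linked BAP1 partner genes rose. Ogt, which encodes the O-GlcNAc transferase, had 26 and 36 counts in mock and 149 and 228 in BMH21, a log2 fold change of 2.63 ± 0.28 (SE; edgeR adjusted p = 4.62e-12). Hcfc1 had 116 counts in each mock library and 6809 and 7695 in BMH21. On autosomes, the forkhead partner gene Foxk1 rose by 0.26 ± 0.05 (SE; edgeR adjusted p = 7.23e-05) and Mbd6, a methyl-CpG-binding-domain partner gene, fell by 0.35 ± 0.05 (SE; adjusted p = 5.23e-08 in edgeR).

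The genes that oppose Polycomb, the H3K27 demethylases and the COMPASS methyltransferases, numbered 18, of which 3 rose and 4 fell (38.9% called, against 29.1% over all genes), with a median log2 fold change of -0.01. On autosomes 1 of 16 rose and 4 fell (31.2% against 27.9%), a share near the background. Kmt2d, an H3K4 methyltransferase gene, went from 253 ± 2.72 to 161 ± 8.49 CPM (SD, n = 2 each). It fell by 0.66 ± 0.04 on the log2 scale (SE; edgeR adjusted p = 1.55e-25). Men1, the menin gene, rose by 0.39 ± 0.05 (SE; edgeR adjusted p = 5.03e-10), and Kmt2b fell by 0.21 ± 0.04 (SE; adjusted p = 1.79e-06 in edgeR). The X-linked H3K27 demethylase gene Kdm6a had 8 and 10 counts in mock and 92 and 113 in BMH21 (edgeR adjusted p = 3.36e-10). Its Y-linked homologue Uty had 6 and 0 counts in mock and 244 and 216 in BMH21 (edgeR adjusted p = 1.91e-21). Both passed the filter only through the BMH21 libraries. The autosomal demethylase gene Kdm6b had 15.1 CPM in mock against 14.4 in BMH21 (-0.07 ± 0.11 SE, edgeR adjusted p = 0.693).

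Few textbook targets of Polycomb silencing had counts to test. Of 39 Hox genes, 16 had a row and 9 could be tested. None was called by edgeR, 0 had an unadjusted p under 0.05, and DESeq2 called 0, against 27.9% of autosomal genes called by edgeR. That share covers genes of all levels (38.4% at a mean of 10 CPM or more) and is not matched to the level of these genes. The Hox genes with the highest levels were Hoxd8 (94.6 CPM in mock and 96.2 in BMH21, log2 fold change 0.02 ± 0.05 SE) and Hoxa4 (41.1 and 39.2 CPM, -0.07 ± 0.07 SE), chosen after their values were seen. The other tested Hox genes were weaker, from 7.61 CPM in mock for Hoxa3 down to 0.367 CPM for Hoxb6. Among 32 other developmental regulators, 19 had a row, 15 were tested and 1 was called (6.67% against 27.9%), the transcription factor gene Pax7. It was under 1 CPM (0.774 and 0.172 CPM; -2.15 ± 0.69 SE, edgeR adjusted p = 0.0129), and leaving out any 1 library ended the call. Of the 15, only Sox17 (19.5 CPM in mock and 18.2 in BMH21) had a mean of 10 CPM or more. With so few counts, the low shares of calls cannot show whether textbook targets changed less than other genes.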

How the data were processed

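The data are RNA-seq read counts of 2 mock and 2 BMH21 libraries of sorted mouse pachytene spermatocytes, grouped by the labels. Per the submitters' processing notes, the build was mm10 and the tools included featureCounts, STAR, Fastp, SAMtools and DESeq2; strand and multi-mapping settings are not given in the sources used here. The authors deposited raw counts per gene, which were tested here. The size-factor-normalized signal, log2 fold changes, Wald score, p-values and marks were also deposited by the authors. Of these, only the adjusted p-values, the marks and the direction of the log2 fold changes were used. Gene positions in the table matched GENCODE M21 for only 369 of 15670 genes, so coordinates, exon lengths and overlaps are from M21 (GRCm38) by gene identifier.

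Genes were kept by edgeR's filterByExpr (minimum count 10; 13793 kept), scaled by TMM and tested by quasi-likelihood in R 4.3.3 with edgeR 4.0.16, group as the only term; the common biological coefficient of variation was 4.09%. CPM use TMM-scaled totals. The SE is the log2 fold change over the root of F. No gene list was tested. On simulated counts of 13605 genes for BMH21 against mock, 30 of 50 genes changed 1.25-fold, 45 of 50 changed 1.5-fold and all 50 changed 2-fold were recovered, with 9 false among 184 calls. Only genes at 1 CPM or more were changed there, and every gene was given the common coefficient of variation. Recovery of weaker or more variable genes is thus not shown. Libraries of 1 group differed beyond sampling noise (chi-square over its degrees of freedom 3.12 in mock and 3.59 in BMH21). Members called or core were to be named, with up to 4 genes per further list and its sex-linked genes; other names were chosen after values were seen. The members and lists were chosen with earlier results of these data known. Alternatives were RLE and upper-quartile scaling, TMM on autosomal genes, DESeq2 1.42.0, no filter, a minimum count of 50, the replicate number as a block, and each library left out.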

Additional observations from a re-analysis of the deposited data

How the results depend on the processing

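Across 11 alternatives Scml2, Bcorl1, Phc2, Phc3, Pcgf3, Bap1, Rybp, Ring1, Rnf2, L3mbtl2 and Sfmbt2 kept direction and call, while Suz12, Pcgf1, Asxl1, Pcgf6 and Bcor lost theirs in at least 1. Members called numbered 7 to 9 higher and 6 to 12 lower. Upper-quartile scaling shifted the median of all tested genes to -0.05, gave 1805 genes higher and 2480 lower in place of 2282 and 1731, and 8 members higher and 12 lower; the members' median was -0.11 over all tested and -0.12 over autosomal members, against -0.07 and -0.07. With 1 library left out these medians were -0.0590 to -0.0117 and -0.0942 to -0.0255. The cause was not tested. Same-numbered libraries share only a number (correlation of their deviations 0.0096); with the replicate block 8 members were higher and 7 lower, and 2189 genes higher and 1595 lower. Where 1 library is left in a group, it is assumed to vary like the other group. With 2 libraries per group, small changes and genes under 1 CPM are weakly resolved, and the scaling cannot show a change shared by all genes. P-values set the group difference against the spread between these libraries, which is estimated for each gene with help from all genes.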
